A study of Homo sapiens with 2 samples.

Results

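Genes of MHC class I antigen presentation were followed in A549 cells induced by TGF-beta to undergo epithelial to mesenchymal transition (EMT), with untreated A549 cells as the control. The group held 7 genes, HLA-B, HLA-C, HLA-E, B2M, TAP1, TAP2 and TAPBP, chosen by gene symbol from 57736 gene entries of the deposited count table. Where a symbol had several gene entries the one with the largest summed count was kept, which applied to TAP2, with 2 entries. A549 is an established human lung adenocarcinoma line. Both cultures are labelled wild type, and per the series' design they carried a red fluorescent reporter of vimentin. There was 1 library labelled as TGF-beta-induced EMT and 1 library of cells given no treatment, and neither source used here states the dose or duration of TGF-beta. Since each condition had a single library, the treatment effect could not be tested and the differences below lack a replicate check.

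MHC class I molecules display peptides from inside the cell to CD8+ T cells. A polymorphic heavy chain, such as HLA-B or HLA-C, folds with the invariant light chain beta-2-microglobulin, encoded by B2M. Peptides cut by the proteasome are pumped into the endoplasmic reticulum by the transporter TAP1/TAP2 and are loaded onto the heavy chain with the help of tapasin, encoded by TAPBP. In epithelial cells this machinery is present at a basal level and is induced by interferon.

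The TGF-beta library held 597133 rounded counts and the untreated library 674784, with 43.7% and 32.7% of the deposited counts in the 10 genes with the most counts. Values are given as rounded counts and as CPM, the count relative to a library total that was scaled by the trimmed mean of M-values (TMM). VIM, the vimentin gene and a marker of EMT, went against the label, with 56 counts in the library labelled as TGF-beta-induced and 452 in the untreated one (log2 ratio -2.68 on the TMM scale). Relative to the summed ribosomal protein genes VIM was higher by 0.85 on the log2 scale (0.41 to 1.26). Of 7 fibroblast markers 4 passed the filter, with a median log2 ratio of -0.22, and the collagen gene COL1A1 was the one higher by 2-fold or more, at 356 and 196 counts. The name TGF-beta library below means the library with that label. Epithelial markers summed to 113 and 304 counts, in the order TGF-beta and untreated, a difference that lay mostly in the keratins KRT7 (32 and 179) and KRT8 (16 and 53). Their median log2 ratio was 0.16 over 7 genes, of which 3 were lower by 2-fold or more and 2 higher, and EPCAM had 7 and 4. The 8 A549 markers summed to 1160 and 1491, mostly in ALDH3A1 (1025 and 994), and had a median of -1.63 with 4 lower by 2-fold or more and 1 higher. Markers of leukocytes, which carry much MHC class I, summed to 21 and 47 counts (37.2 and 65.9 CPM), with 2 of 12 markers, MS4A1 and LYZ, at 0 in both libraries. Of the 12, 6 passed the filter, with a median log2 ratio of -1.19, 3 lower by 2-fold or more and 1 higher. CD68 had 2 and 17 counts and CD14 had 0 and 10, both with counting intervals below 0. CD3E, the higher one, had 5 and 3. PTPRC, the pan-leukocyte phosphatase, had 2 and 5 counts. The part of other cells in the differences below was not tested. In bulk RNA, fewer cells of a type and less RNA per cell cannot be told apart.

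The class I presentation genes together were 3.62-fold lower in the TGF-beta library (95% counting interval 2.45-fold to 5.48-fold). HLA-C and B2M had the largest differences, 21.4-fold and 12.1-fold lower. TAP1 and HLA-E were lower by 5.55-fold and 2.71-fold. The differences of HLA-B and of TAPBP were within counting error, and TAP2 had too few counts for a ratio. These folds are on the TMM scale, and the direction of the sum reversed when ribosomal protein genes were used for scaling. The members summed to 32 counts against 146. Their share of untreated counts was 0.0216% (exact Clopper-Pearson 95% limits 0.0183% and 0.0254%). The share with TGF-beta was 0.00536% (0.00367% to 0.00757%).

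**Figure D1:**
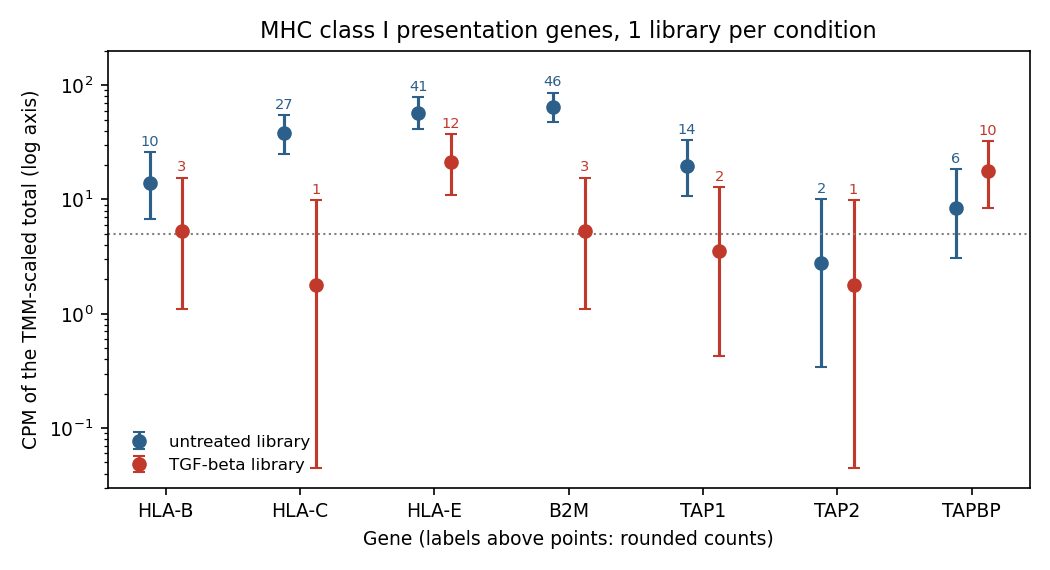
Levels of the 7 genes in CPM of the TMM-scaled total (log axis) in the untreated library (blue) and the TGF-beta library (red). Bars are exact 95% Poisson intervals, the labels are rounded counts, and the dotted line is the filter at 5 CPM. TAPBP is the one gene with the higher point in the TGF-beta library.

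Of the 7 genes, 6 passed the filter of at least 5 CPM in 1 library. After TGF-beta 5 of them were lower by 2-fold or more (HLA-B, HLA-C, HLA-E, B2M and TAP1) and 1 was higher by as much (TAPBP), beside 26.7% lower and 22% higher among all 15401 genes that passed. In 4 of the 5 lower members the counting interval lay wholly below a log2 ratio of 0, as it did for 16.8% of all genes. The interval lay wholly above 0 in 0 members and in 9.99% of all genes. Among the 9482 genes with at least 10 counts over both libraries, 31.9% were lower by 2-fold or more and 17.4% higher. The 5 CPM filter admits 3 counts in the TGF-beta library (5.31 CPM) but not in the untreated one (4.21 CPM). Requiring more than 3 counts in 1 library left 4111 genes lower and cut those higher from 3391 to 2996. The median log2 ratio of the 6 members was -1.95, beside 0.01 for all genes that passed. In the TGF-beta library 5 of the 7 genes had 3 counts or fewer, so single counts move their ratios.

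**Figure D2:**
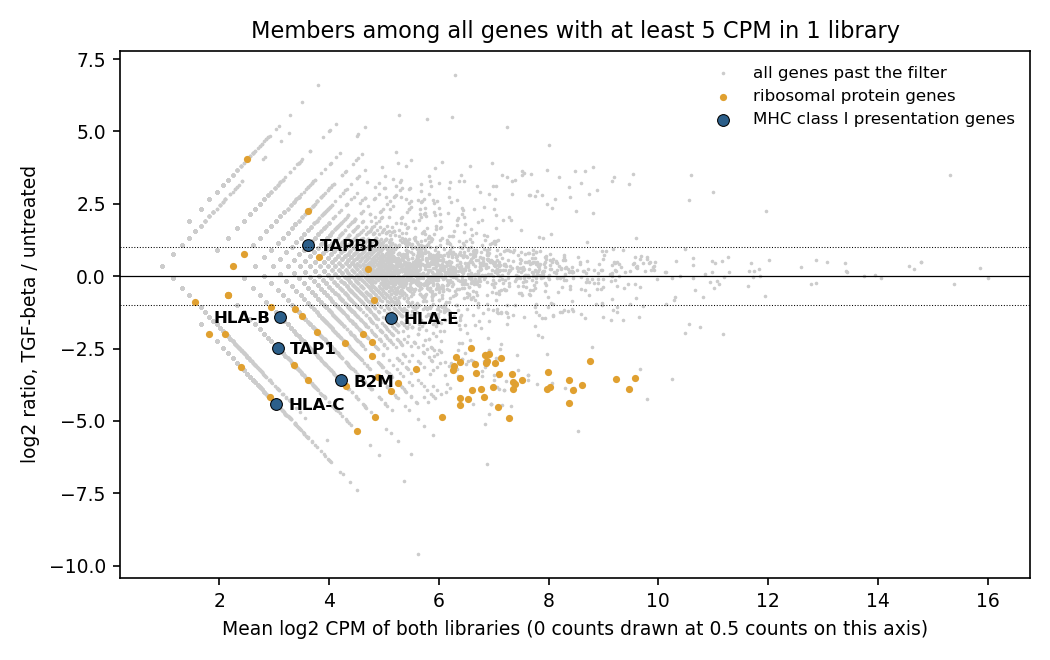
Log2 ratio of TGF-beta over untreated, on the TMM scale, against the mean log2 CPM of both, for all 15401 genes with at least 5 CPM in 1 library (grey), ribosomal protein genes (orange) and the 6 class I presentation genes that passed (blue). Dotted lines mark 2-fold. HLA-C and B2M lie at log2 ratios of -4.42 and -3.60, beside a median of -3.28 for the ribosomal protein genes, and TAPBP lies above 0.

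The stretch of 145 bases that ends 41 bases before the RefSeq transcription start (GRCh38.p14) is shown for HLA-B, HLA-C, B2M and TAP1 (the first of its 2 entries), the lower members with a promoter entry, because class I promoters are known for shared control elements. Capitals mark matches on either strand. They are to GAANNGAAA, a spelling of the interferon-stimulated response element core, and to the NF-kappaB consensus. The core of the cyclic AMP response element (TGACG) and the Y box core (CCAAT) are marked too.
HLA-B, chr6:31357220-31357364, minus strand: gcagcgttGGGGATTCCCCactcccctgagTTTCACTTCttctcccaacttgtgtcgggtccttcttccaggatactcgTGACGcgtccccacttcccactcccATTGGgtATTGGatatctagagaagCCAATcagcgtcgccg
HLA-C, chr6:31272133-31272277, minus strand: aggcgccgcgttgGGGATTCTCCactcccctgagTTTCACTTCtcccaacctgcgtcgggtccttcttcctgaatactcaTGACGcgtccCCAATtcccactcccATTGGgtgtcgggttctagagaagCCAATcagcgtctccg
B2M, chr15:44711332-44711476, plus strand: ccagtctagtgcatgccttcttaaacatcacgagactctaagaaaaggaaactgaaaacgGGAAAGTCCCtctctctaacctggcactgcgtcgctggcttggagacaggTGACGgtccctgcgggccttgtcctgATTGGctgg
TAP1, chr6:32853745-32853889, minus strand: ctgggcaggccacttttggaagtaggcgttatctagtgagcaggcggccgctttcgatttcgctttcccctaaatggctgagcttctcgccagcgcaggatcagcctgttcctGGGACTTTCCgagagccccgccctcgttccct

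HLA-B and HLA-C showed the same order of matches, with the NF-kappaB consensus first, the interferon response core next, then TGACG, and Y box cores after it. In B2M the NF-kappaB consensus, TGACG and 1 Y box core were found, and in TAP1 the NF-kappaB consensus. Over the 250 bases before the start, 5 of the 6 members with a promoter entry held the NF-kappaB consensus, as did 9.96% of 35116 promoters in the RefSeq table. The letters GAANNGAAA were found in 3 of the 6 (HLA-B, HLA-C and TAP2) and in 6.56% of all promoters. Other spellings of the interferon response element were not searched. The B2M stretch above holds gaaactgaaa and the TAP1 stretch tttcgctttc, which that search does not count. TGACG was found in 4 of the 6 (21.2% of all), the Y box core in 4 (32%) and the Sp1 box GGGCGG in 4 (42.6%). TAPBP, which was not lower, also held the NF-kappaB consensus. A match describes the letters of the sequence and is not evidence of a bound site.

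Among the heavy chains, compared on the TMM scale, HLA-C (ENSG00000204525, hg19 chromosome 6, 31236526 to 31239907, minus strand) had 1 count after TGF-beta and 27 without it. These correspond to 1.77 CPM (95% counting interval 0.0448 to 9.86) and 37.9 CPM (25 to 55.1). Its log2 ratio was -4.42 (-9.77 to -1.82). HLA-C, a classical heavy chain that is also a ligand of killer cell receptors, was thus nearly unread in the TGF-beta library, and the width of its interval comes from that single count. HLA-B (ENSG00000234745, chromosome 6, 31321649 to 31324965, minus strand) had 3 and 10 counts, or 5.31 and 14.0 CPM. Its log2 ratio of -1.40 had an interval from -3.90 to 0.56, so a difference in this classical heavy chain was not detectable at this depth.

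HLA-E, a non-classical heavy chain that presents leader peptides of other class I molecules to natural killer cells, was also lower on that scale. HLA-E (ENSG00000204592, chromosome 6, 30457244 to 30461982, plus strand) had 12 counts against 41, or 21.2 CPM (11.0 to 37.1) against 57.5 CPM (41.3 to 78.0). The log2 ratio was -1.44 (-2.50 to -0.48). The 3 heavy chains together had 16 counts against 78, a log2 ratio of -1.95 (-2.83 to -1.16).

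B2M, the light chain shared by all class I heavy chains, was lower on the TMM scale too. B2M (ENSG00000166710, chromosome 15, 45003675 to 45011075, plus strand) was read 3 times after TGF-beta and 46 times without it. The values were 5.31 CPM (1.09 to 15.5) and 64.5 CPM (47.2 to 86.0), and the log2 ratio was -3.60 (-5.93 to -1.97). No gene on the other strand overlapped B2M in the deposited table.

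The genes of peptide transport and loading did not move alike. TAP1 (ENSG00000168394, chromosome 6, 32812986 to 32821755, minus strand), a subunit of the peptide pump, had 2 counts against 14, or 3.54 CPM (0.429 to 12.8) against 19.6 CPM (10.7 to 32.9). Its log2 ratio was -2.47 (-5.65 to -0.35). Its partner TAP2 (ENSG00000204267, chromosome 6, 32789610 to 32806557, minus strand) had 1 count against 2 and failed the filter. TAPBP (ENSG00000231925, chromosome 6, 33267471 to 33282164, minus strand), the tapasin gene, had 10 counts against 6, or 17.7 CPM (8.49 to 32.5) against 8.41 CPM (3.09 to 18.3). Its log2 ratio of 1.07 had an interval from -0.53 to 2.82. Summed over the 3 genes, 13 counts stood against 22 (log2 ratio -0.42, -1.53 to 0.63).

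Differences between members do not depend on how the libraries were scaled. In 6 of 21 pairs the interval of the difference between 2 members' log2 ratios excluded 0, with no adjustment for the number of pairs. Less that of TAPBP, the log2 ratio of HLA-C was -5.32 (-10.98 to -2.13), that of B2M -4.55 (-7.42 to -2.18), that of TAP1 -3.41 (-7.01 to -0.67) and that of HLA-E -2.47 (-4.51 to -0.56). TAPBP therefore stood above each of these 4 genes. HLA-E was higher relative to B2M by 2.15 (0.12 to 4.71), and HLA-C less HLA-E was -2.96 (-8.45 to -0.05). HLA-B was not separated from any other member beyond counting error. These intervals compare the 2 libraries, not the conditions.

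The direction of the group rested on the genes used for scaling. Ribosomal protein genes, 72 of 79 of which passed the filter, had a median log2 ratio of -3.28, and ACTB and GAPDH had log2 ratios of -3.43 and -4.25. Against the summed ribosomal protein genes the members' summed count was higher in the TGF-beta library by 1.67 on the log2 scale (1.07 to 2.24). Against ACTB it was higher by 1.57 (0.78 to 2.37) and against GAPDH by 2.40 (1.73 to 3.03). B2M differed from the ribosomal protein genes by -0.08 (-2.41 to 1.56) and HLA-C by -0.89 (-6.25 to 1.71), which is within counting error. HLA-E and TAPBP lay above the ribosomal protein genes, by 2.09 (1.02 to 3.05) and 4.60 (2.99 to 6.34). The members were therefore lower relative to the bulk of the genes and, as a sum, higher relative to these abundant housekeeping genes. The part of that broad difference in the members' values was not tested.

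The exon entries of the deposited table show where along each gene the counts lay, as the deposited estimates divide them. For HLA-E, the exon entry of 276 bases (chr6:30458017-30458292) held 34.6 estimated counts without treatment and 3.43 with TGF-beta. The entry of 640 bases (chr6:30457503-30458142), which runs from the preceding exon through the intron into that exon, held 2 without treatment and 7.69 with TGF-beta. It made up 64.1% of HLA-E with TGF-beta and 4.88% without it. The 640-base entry thus had the higher count in the TGF-beta library and the 276-base entry the lower. From rounded counts of 8 and 2 against 3 and 35, the log2 ratios of the 2 entries differed by 5.31 (2.37 to 9.11), a comparison chosen after the values were seen. The 2 entries overlap and their counts are divided estimates. The interval does not cover the uncertainty of that division.

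The entries of HLA-B and HLA-C rest on 3 counts and 1 count in the TGF-beta library, too few to compare their spread. The 3 counts of HLA-B in the TGF-beta library all lay in an entry of 921 bases, and in the untreated library 5.73 lay in an entry of 276 bases and 3.65 in the 921-base entry. The single HLA-C count lay almost wholly (0.995) in an entry of 593 bases, which held practically none of the untreated counts. Untreated HLA-C counts lay mainly in entries of 770 bases (13.8) and 276 bases (8.80). The B2M entry of 279 bases held 74.3% of its 3 counts with TGF-beta and 71.5% of its 46 counts without it, and an entry of 105 bases held the rest. TAP1 counts in the untreated library lay mainly in an entry of 129 bases (10.5), which held 0 in the TGF-beta library. TAPBP was read mostly in its entry of 2078 bases, with 7 and 3.25.

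**Figure D3:**
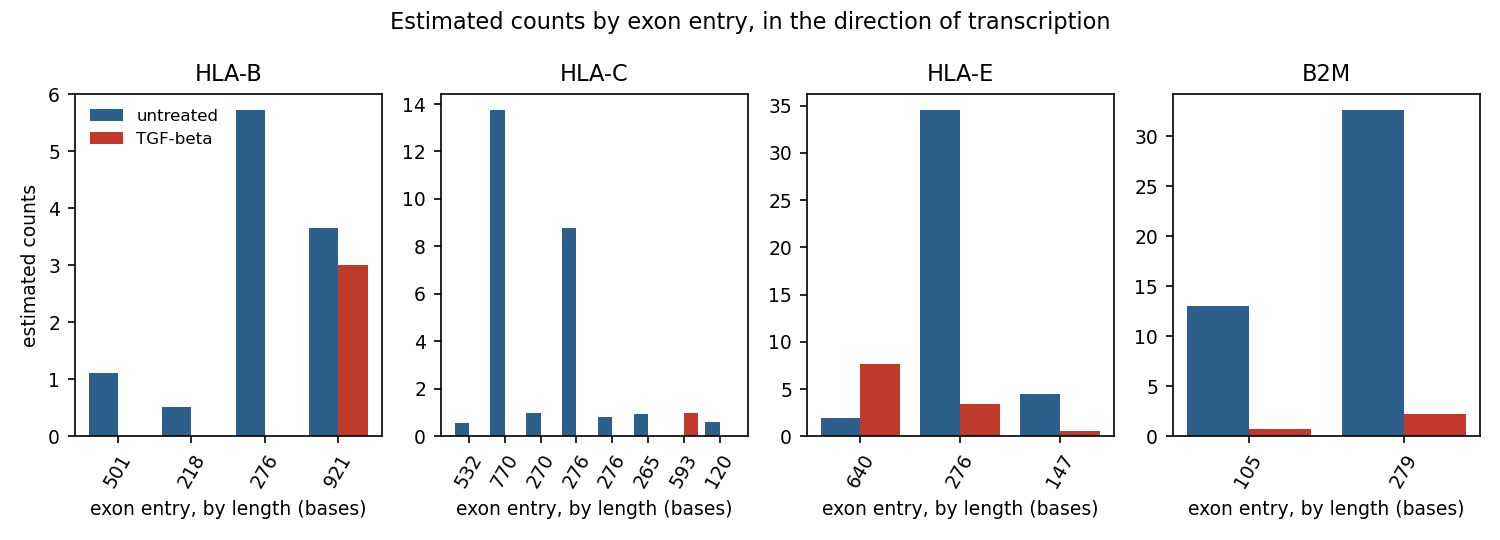
Estimated counts by exon entry of HLA-B, HLA-C, HLA-E and B2M in the untreated library (blue) and the TGF-beta library (red). Entries with at least 0.5 counts are shown in the direction of transcription and labelled by length in bases. In HLA-E the 640-base entry is higher in the TGF-beta library (7.69 against 2), and in B2M both entries are lower.

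Class I genes are near copies of each other, so reads may be divided between them, which makes the counts of HLA-B, HLA-C and HLA-E uncertain. Whether this happened was not tested. HLA-F, a non-classical heavy chain that is no member, had 7 counts against 1 (log2 ratio 3.14, 0.18 to 8.64). In the list of class I-like and non-classical heavy chains, 3 of the 6 genes that passed of 12 were at least 2-fold lower and 1 higher, beside 26.7% and 22% of all genes that passed, with ULBP3, a ligand of natural killer cells, at 0 counts against 17.

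On the TMM scale, genes that feed and assist the class I molecules were mostly lower. In the list of peptide loading and trimming 6 of 7 genes that passed (9 listed) were lower by 2-fold or more, none was higher, and the list had a median log2 ratio of -1.89. Over all genes that passed, 26.7% were lower and 22% higher by as much. PDIA3, the oxidoreductase of the peptide loading complex, had 10 counts against 41 (-1.70, -2.86 to -0.68). The chaperone HSPA5 had 14 against 137 (-2.95, -3.86 to -2.16), the glucosidase subunit GANAB had 0 against 14, and the chaperone CALR had a log2 ratio of -3.43. CANX, the membrane chaperone of new heavy chains, had 33 against 46 (-0.14, -0.83 to 0.53). The constitutive proteasome subunits PSMB5, PSMB6 and PSMB7 had log2 ratios of -3.47, -2.17 and -2.33, all with intervals below 0. PSME1, a subunit of the proteasome activator, had 0 counts against 15.

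PSMB9, the immunoproteasome subunit whose gene starts beside TAP1 on the other strand, differed from its neighbour. PSMB9 was read 77 times with TGF-beta and 63 times without it, a log2 ratio of 0.63 (0.13 to 1.13). Relative to TAP1 it was higher by 3.08 (0.88 to 6.31), a comparison chosen after the values were seen. All PSMB9 counts lay in 1 exon entry of 129 bases (chr6:32821938-32822066). The PSMB9 entry of the deposited table spans TAP1, and since no source used here states how strand was treated, reads of such overlapping genes cannot be told apart. That exon entry lies outside the TAP1 entry. The other immunoproteasome subunits had 0 counts in both libraries (PSMB8) or 0 against 3 (PSMB10).

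**Figure D4:**
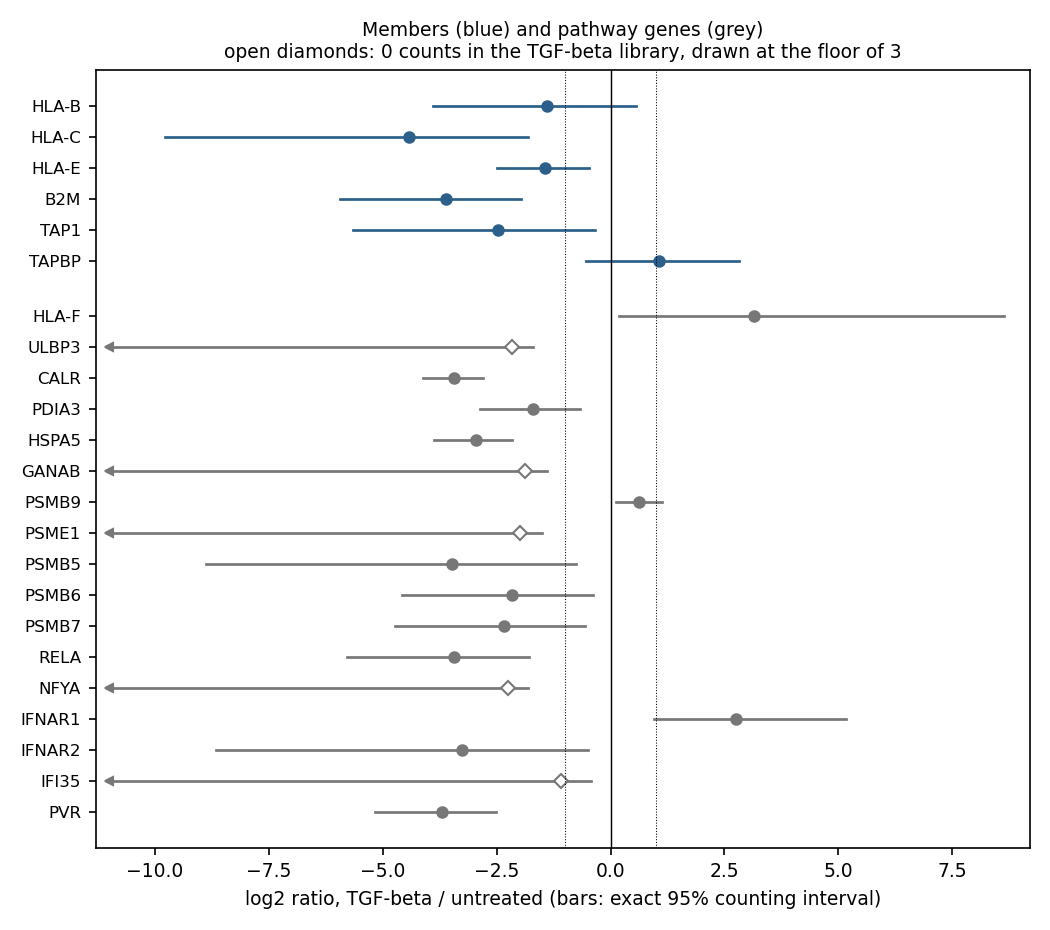
Log2 ratio of TGF-beta over untreated, on the TMM scale, for the 6 class I presentation genes with a ratio (blue) and 17 genes of the pathway lists (grey), with exact 95% counting intervals. Open diamonds stand for 0 counts in the TGF-beta library, drawn at the floor of 3 counts with an interval open to the left, and dotted lines mark 2-fold. HLA-C, HLA-E, B2M and TAP1 lie wholly below 0. The grey genes were picked from those whose interval excludes 0, so none could cross it. Among them HLA-F, PSMB9 and IFNAR1 lie above 0 and the others below. Of all 50 pathway genes that passed, 16 had an interval wholly below 0 and 3 wholly above, beside 16.8% and 9.99% of all genes.

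Regulators of class I transcription were sparse. Of 12 listed, 7 passed the filter, 2 were lower by 2-fold or more and 1 was higher (median log2 ratio -0.40), beside 26.7% and 22% of all genes. RELA, an NF-kappaB subunit, had 3 counts against 41 (-3.44, -5.77 to -1.79), and NFYA, a subunit of the factor that binds the Y box, had 0 against 18. NLRC5, the class I transactivator, had 7 against 3 (1.56, -0.57 to 4.14), and the interferon response factor IRF1 had 5 against 9 (-0.51, -2.44 to 1.22). Interferon receptors and signalling genes were split, with 3 of 8 genes lower, 3 higher and a median of 0.24, beside the same 26.7% and 22%. The 2 chains of the type I interferon receptor went opposite ways, IFNAR1 with 16 against 3 (2.75, 0.95 to 5.17) and IFNAR2 with 1 against 12 (-3.25, -8.67 to -0.49).

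Interferon-stimulated genes had a median log2 ratio of -0.08 over the 9 of 20 that passed, beside 0.01 for all genes. Of these, 1 was lower by 2-fold or more and 1 higher. IFI35 had 0 counts against 8, and the ubiquitin-like modifier ISG15 had 23 against 20 (0.54, -0.39 to 1.48). Of 11 class II genes 3 passed and none was 2-fold higher or lower. Among ligands of natural killer and T cells 2 of 5 genes that passed were lower, with PVR at 6 counts against 98 (-3.69, -5.17 to -2.52) and CD274, which encodes PD-L1, at 52 against 71 (-0.11, -0.66 to 0.42). Over all lists of pathway genes together, 21 of 50 genes that passed were lower by 2-fold or more and 6 were higher, with a median of -0.33, beside 26.7% lower and 22% higher among all genes.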

How the data were processed

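The deposited table holds estimated counts per gene, fractional in part and, as far as the values show, not normalized by the authors, with transcript entries as shares within a gene and exon entries as divided counts. Per the labels' protocols, each AmpliSeq Transcriptome library was made from 10 ng of RNA, and the kit reads a short amplified segment of a gene. Counts therefore do not scale with length, and levels are not compared between genes. Per the submitters' processing notes the build was hg19, and DESeq is listed with no role. The aligner and counter are not given in the sources consulted.

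Gene values were rounded and libraries scaled by TMM in edgeR 4.0.16 (R 4.3.3), where the TGF-beta library took a factor of 0.946 and the untreated one 1.06. No pseudocount was used. A count of 0 was set to a floor of 3 counts (5.31 and 4.21 CPM), and no ratio is given with 3 counts or fewer in both libraries. Tallies and list medians keep genes at the floor value. For a ratio the 95% interval is Clopper-Pearson's, given the gene's summed count, and for a difference of ratios it comes from the conditional exact odds ratio (SciPy 1.17.1). Intervals cover counting error only, because reads amplified without molecular identifiers are not independent molecules. The calculation was tested on simulated data. The genes changed there had more expected counts than the members have, so the simulation does not cover the members' depth.

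The members and lists were chosen with earlier results of these data known. Named are all members, up to 4 genes per list with the largest ratio whose interval excludes 0, and markers and controls; some genes that this rule takes are not reported here. CANX, NLRC5, IRF1, ISG15, CD274, PSMB8 and PSMB10 were named after their values were seen. HLA-E had no entry in the RefSeq promoter table.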

Additional observations from a re-analysis of the deposited data

How the results depend on the processing

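No paired analysis was possible because each group holds 1 library, and no library could be left out. With DESeq2 size factors, total counts, upper quartile scaling, unrounded counts, log2(CPM + 1), a floor of 1 count, all gene entries summed or the exon with the most counts only, the members' summed log2 ratio lay between -2.32 and -1.78. Leaving out 1 member at a time, chosen after seeing the data, gave -2.33 to -1.45. Scaling on the ribosomal protein genes shifted every log2 ratio by 3.53. The summed ratio then reversed to 1.67, HLA-E to 2.09 and TAP1 to 1.05. HLA-B also changed sign, from -1.40 to 2.12. The members' median reversed to 2.09, with 0 members at least 2-fold lower and 5 higher. That median and the 5 higher members take in TAP2 (1 count against 2), which failed the main filter. All genes then gave 112 lower and 21020 higher, and the pathway genes 0 lower and 62 higher with a median of 3.28. These tallies exceed the 15401 genes and 50 pathway genes of the main filter. A larger set thus passed on that scale, and the tallies are not comparable with the main ones. TAPBP was no longer 2-fold higher (0 members) with DESeq2 size factors, total counts, or log2(CPM + 1), and did not pass a filter of 20 CPM.

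At 20 CPM, 3 members were lower (median -3.60), all genes gave 1921 lower and 986 higher, and pathway genes 12 lower and 1 higher (median -2.06). HLA-C and B2M passed that filter only through the untreated library, where they were high, and HLA-B, TAP1 and TAPBP fell out. The lower median of the members is thus not a separate result. The tallies in this paragraph are counts, given without the share of the genes that passed each filter. At 1 CPM and with no filter beyond 1 count, all genes gave 7430 lower and 6903 higher and pathway genes 28 lower and 16 higher (median -0.08). With at least 10 counts over both libraries, added after seeing the data, 1650 genes were higher. With the exon with the most counts only, the members' share was 0.00268% with TGF-beta and 0.0150% without, and 4 members were lower. HLA-E then had a log2 ratio of -3.21, B2M -3.71, HLA-B -0.08 and TAPBP 1.56, while HLA-C (-1.89) and TAP1 (-1.54) had 0 counts with TGF-beta and stand at the floor. Depth is a limit, since 5 of 7 members had 3 counts or fewer in the TGF-beta library.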
